A study of Arabidopsis thaliana with 18 samples.

Results

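The genes described here are the 40 core, linker and variant histone genes of Arabidopsis thaliana, chosen by a list of AGI locus identifiers. The rule uses no measured value, although the list was drawn up with earlier results of these data known. They are 40 of 33560 genes in the sorted cell table and 40 of 33201 entries in the root tip table. The series holds 18 samples in 6 groups of 3, all from 5-day-old seedlings. In the sorted part every library carries a tcx2 mutation, and GFP-positive protoplasts were collected from the mutant crossed with CYCD6:GFP (a reporter of cortex-endodermis initials), FEZ:FEZ-GFP (epidermis and lateral root cap initials), TMO5:3xGFP (xylem initials) or WOX5:GFP (the quiescent center, QC). The reporters were crossed into tcx2-2, a knockdown, and tcx2-3, a knockout, and the sources used here do not give which allele each sorted library carries. Sorted WT cells were not analysed here, so these 12 libraries compare populations within the mutant. In the root tip part tcx2-3 root tips stand against WT (Col-0) root tips, each group as 1 pooled value per gene.

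Histones package DNA into nucleosomes, in which H2A, H2B, H3 and H4 form the core and H1 binds the linker between cores. Replication-dependent histones (H3.1, H4, H2A and H2B) are made mainly in S phase and are deposited behind the replication fork, whereas replacement variants (H3.3, H2A.X and H2A.Z) can be made and deposited outside S phase. H3.3 is known for its place in transcribed genes, H2A.Z for nucleosomes near transcription starts, H2A.X for DNA damage signalling and H2A.W for plant heterochromatin. TCX2 encodes a CXC-domain protein related to LIN54, the DNA-binding subunit of the animal DREAM complex, which controls cell-cycle genes. In the root stem cell niche the QC divides rarely and the initials around it divide more often. Replication-dependent histone mRNA is in general one readout of S phase, but S phase itself was not measured in the populations described here.

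The members fell into 5 H3.1 genes, 3 H3.3 genes, 8 H4 genes, 4 H2A genes, 2 H2A.X genes, 3 H2A.Z genes, 3 H2A.W genes, 9 H2B genes and 3 H1 genes. The 26 replication-dependent genes and the 8 replacement variants were set against each other. In the RefSeq annotation of TAIR10.1, 5 of the 26 replication-dependent genes had an intron, the 4 H2A genes and 1 H4 gene (AT1G07660). All 14 other members had one. The H3.1 and H3.3 genes showed how alike members are and how far reads can still tell them apart. Their coding sequences had the same length of 411 bases, and 258 of these bases were alike in all 8 genes. The 10 pairs of H3.1 genes were 80.3% to 89.5% identical, and the 15 pairs of an H3.1 and an H3.3 gene were 74.0% to 80.3% identical. At 12 bases all 5 H3.1 genes had one base and all 3 H3.3 genes another, and 5 of these lay in a stretch of 60 bases from coding base 66 to coding base 125. That stretch is printed for 3 genes of each class, read from the RefSeq TAIR10.1 genome on the minus strand, with the 5 separating bases in capitals, because the contrast between these classes is the main pattern below.
HTR3 (H3.1, chr3:10129745-10129804): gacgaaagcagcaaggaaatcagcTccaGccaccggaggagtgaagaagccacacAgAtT
HTR9 (H3.1, chr5:3270764-3270823): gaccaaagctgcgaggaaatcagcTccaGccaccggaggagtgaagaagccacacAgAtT
HTR13 (H3.1, chr5:3269351-3269410): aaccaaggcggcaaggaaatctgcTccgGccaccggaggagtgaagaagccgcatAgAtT
HTR4 (H3.3, chr4:18556211-18556352): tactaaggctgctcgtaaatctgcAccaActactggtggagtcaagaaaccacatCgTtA
HTR5 (H3.3, chr4:18558025-18558171): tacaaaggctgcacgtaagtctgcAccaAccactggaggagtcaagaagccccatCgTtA
HTR8 (H3.3, chr5:3472967-3473284): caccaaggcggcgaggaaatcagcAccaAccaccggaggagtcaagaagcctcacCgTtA

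The H3.3 stretches cross an intron, so their coordinates are outer bounds and the intron is left out of the letters. The H3.1 genes carried the stretch in a single exon. Over windows of 100 bases, the read length of the study, 36 members had no window that occurs anywhere else in the genome. The exceptions were the H4 pair AT1G07660 and AT1G07820, with 6.10% and 4.32% of windows shared, and the H4 pair AT3G45930 and AT3G46320, with 11.1% and 12.1%. Values of these 4 genes are therefore less certain singly than as a class. Members also stood close together: HTR9 and HTR13 were 577 bases apart, and HTR4 and HTR5 were 42 bases apart.

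Another limit came from overlapping genes, and it touches HTR3. In the annotation 9 of the 40 members overlapped another gene, namely HTR3, HTA3, HTA9, HTA12, HTA13, HTB9, HTB10, H1.1 and H1.2, and HTA12 and HTB10 overlapped each other on opposite strands. HTR3, an H3.1 gene at chr3:10129105-10129937 on the minus strand, overlapped AT3G27380, and the root tip table gives the 2 genes as a single merged entry. In the sorted table HTR3 had values above 0 but under 1e-06 FPKM in 3 libraries, CYCD6:GFP replicate 2 and WOX5:GFP replicates 1 and 2. HTR3 was the one member with such values, which occurred in 9 of the 9979 tested genes. In those 3 libraries the overlapping AT3G27380 had 8.60, 8.71 and 11.7 FPKM. Across the other 9 libraries AT3G27380 had between 3.41 and 14 FPKM. The values of HTR3 are thus estimates from a shared locus, how reads were divided there was not tested, and the sums and shares of H3.1 include HTR3 unless stated otherwise.

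The 250 bases before the annotated start were searched on both strands for elements known from histone and cell-cycle promoters, and the counts are descriptions. The octamer GATCCGCG, a plant histone promoter element, was found in 10 of 40 members, against 37 of 27443 protein-coding promoters (0.135%). It was in 7 of 26 replication-dependent genes and in 1 of 8 replacement variants, HTR5. The hexamer ACGTCA was in 11 members, 8 of them H2B genes, against 7.69% of all promoters. The letters AACGG, the core of an element known from mitotic plant genes, were in 17 of 26 replication-dependent genes and in 1 of 8 replacement variants, against 20.6% of all promoters. The E2F-type letters TTTCCCGC were in none of the 40, against 0.619% of all promoters, and TTTGGCGC was in 2 H4 genes, AT3G45930 and AT3G46320, against 0.361%.

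The letters TTTGAA and TTCGAA make up the element that animal LIN54 is known to bind. TTTGAA was in 15 of 40 members, against 38.8% of all promoters. It was in 6 of 26 replication-dependent genes, in none of the 5 H3.1 genes and in 6 of 8 replacement variants, among them all 3 H3.3 genes. TTCGAA was in 2 members, HTB2 and HTB6, against 7.54% of all promoters. A run of 6 letters is short, and a match is no evidence of binding. The windows of the 4 members that passed a test between sorted populations are printed from TAIR10.1, 5′ to 3′ on the gene's own strand, with every match to a searched element in capitals.
HTR9 (chr5:3270958-3271207, minus strand): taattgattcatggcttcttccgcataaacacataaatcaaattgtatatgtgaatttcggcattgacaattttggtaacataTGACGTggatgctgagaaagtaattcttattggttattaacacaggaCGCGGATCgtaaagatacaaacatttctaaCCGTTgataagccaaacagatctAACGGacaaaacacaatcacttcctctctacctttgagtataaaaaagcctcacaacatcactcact
HTR13 (chr5:3269595-3269844, minus strand): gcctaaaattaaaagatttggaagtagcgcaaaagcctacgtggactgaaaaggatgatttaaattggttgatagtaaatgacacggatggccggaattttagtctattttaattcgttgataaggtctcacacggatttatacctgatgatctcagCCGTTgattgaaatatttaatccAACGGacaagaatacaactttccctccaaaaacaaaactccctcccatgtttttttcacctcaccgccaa
HTR3 (chr3:10129938-10130187, minus strand): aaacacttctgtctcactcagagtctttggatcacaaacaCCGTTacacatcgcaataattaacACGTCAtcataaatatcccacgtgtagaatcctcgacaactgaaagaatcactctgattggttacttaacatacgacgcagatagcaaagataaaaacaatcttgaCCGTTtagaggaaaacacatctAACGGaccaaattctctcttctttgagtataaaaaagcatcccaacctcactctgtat
HTA8 (chr2:16220929-16221178, minus strand): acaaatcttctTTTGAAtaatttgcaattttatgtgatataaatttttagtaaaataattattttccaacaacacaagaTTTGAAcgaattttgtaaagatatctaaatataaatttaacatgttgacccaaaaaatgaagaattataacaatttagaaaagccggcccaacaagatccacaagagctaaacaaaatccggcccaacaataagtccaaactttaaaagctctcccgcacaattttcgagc

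The 3 H3.1 windows each held a pair of AACGG matches close to the start, at 90 and 67 bases before it in HTR9, at 93 and 70 bases in HTR13 and at 80 and 58 bases in HTR3. HTR3 had a further match at 210 bases. HTR9 alone of the 4 held the octamer, on the other strand at 120 bases. HTA8, the H2A.Z gene of the set, held neither, and had TTTGAA at 239 and 171 bases before its start. No match in these 4 windows overlapped another.

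Before the results, the labels were set against the data. TCX2 itself (AT4G14770) had 0.303 FPKM (deposited interval 0.055 to 0.55) in tcx2 root tips and 1.29 FPKM (0.715 to 1.82) in WT root tips. In the sorted table TCX2 lay between 0 and 0.722 FPKM, with no WT value to compare. The mRNAs of the reporter genes were near 0 in most of their own populations: CYCD6;1 was at 0 in all 3 CYCD6:GFP libraries and WOX5 at 0 in all 3 WOX5:GFP libraries, while WOX5 had 1.49, 0.997 and 0 FPKM in TMO5:3xGFP. TMO5 had 0, 0.206 and 0 FPKM in TMO5:3xGFP, against 3.75, 0.391 and 0.782 FPKM in WOX5:GFP. FEZ was the one reporter gene above 0 in all of its own libraries, at 2.90, 0.949 and 0.347 FPKM. It was also above 0 in all TMO5:3xGFP libraries, at 0.702, 0.917 and 0.408 FPKM, which overlap those values. A population is therefore called by its reporter here and not by a cell type. Ribosomal RNA took 78.1% to 85.9% of all FPKM in a sorted library and the other nuclear genes summed to between 40428 and 89046 FPKM. Reads per library are unknown, and between 31 and 38 of the 40 members were above 0 in a library. Of all genes, 18981 to 22170 were above 0 in TMO5:3xGFP libraries and 16604 to 18043 in FEZ:FEZ-GFP. The range was 15831 to 16638 in WOX5:GFP and 14878 to 17712 in CYCD6:GFP. The part of this difference in the histone levels was not tested.

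Among the sorted populations, histone mRNA was by mean most abundant in FEZ:FEZ-GFP and TMO5:3xGFP cells and least abundant in CYCD6:GFP cells. The 40 members summed to 262 ± 130 FPKM in FEZ:FEZ-GFP, 299 ± 110 in TMO5:3xGFP, 103 ± 23.9 in CYCD6:GFP and 137 ± 39.8 in WOX5:GFP (SD, n = 3 each). FPKM scales fragments by transcript length and by the mapped reads of the library, so that levels of different genes can be set side by side. As a share of the FPKM outside ribosomal RNA and organelle genes, the members made up 0.354%, 0.429%, 0.170% and 0.213% in the same order. The libraries of a population were far apart: FEZ:FEZ-GFP replicate 1 had 403 FPKM of histone mRNA and replicate 3 had 147. The sums of FEZ:FEZ-GFP (from 147 FPKM) overlapped those of WOX5:GFP (up to 166 FPKM) and of TMO5:3xGFP. Those of WOX5:GFP (from 92.1 FPKM) overlapped those of CYCD6:GFP (up to 126 FPKM). In such bulk samples, fewer cells that express a gene and less of its mRNA per cell cannot be told apart.

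**Figure D1:**
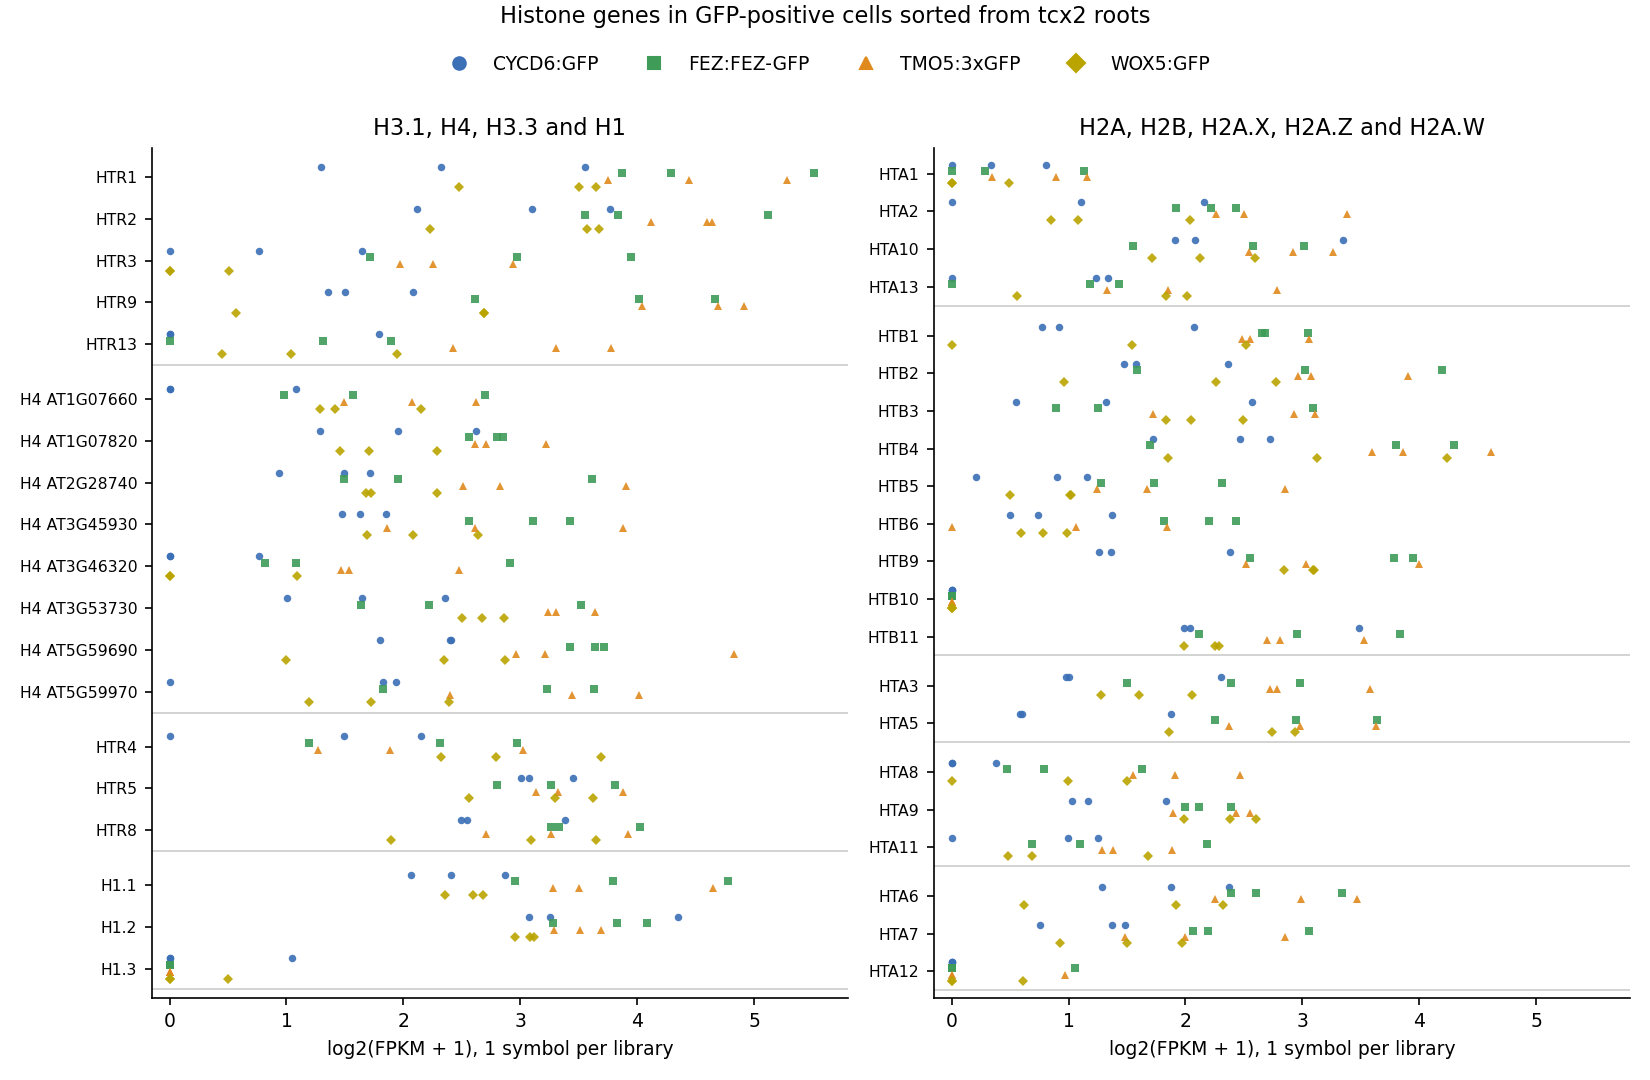
Level of each of the 40 histone genes (rows, grouped by class) in the 12 sorted tcx2 libraries, as log2(FPKM + 1), with 1 symbol per library and 1 color per population. Most replication-dependent genes lie furthest right in FEZ:FEZ-GFP and TMO5:3xGFP libraries, the H3.3 gene HTR5 lies between 4.92 and 13.7 FPKM in all 12 libraries, and HTB10 is at 0 in all 12 libraries.

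The tests ran on the 9979 genes with at least 1 FPKM in at least 3 libraries, of which 36 were members. HTA1, HTA12, HTB10 and H1.3 did not pass this filter. In limma's F-test among the 4 populations, 3 of the 36 members were called at an adjusted p under 0.05, beside 4.28% of all genes tested. These were the H3.1 genes HTR3, HTR9 and HTR13, with adjusted p-values of 0.0075, 0.010 and 0.032. Each population was then set against the mean of the other 3, with a fold change over 2 also required. The members enriched in TMO5:3xGFP were 3, HTR9, HTR13 and HTA8, beside 4.47% of all genes. One member, HTR3, was lower in WOX5:GFP, beside 0.451% of all genes. These contrasts share libraries, so that their results are not independent of each other, and the p-values measure the spread between labelled replicates.

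No member was called in the other contrasts. In CYCD6:GFP none was enriched and none was lower, beside 0% and 0.2% of all genes. At an unadjusted limma p under 0.05, 21 members were lower in CYCD6:GFP, beside 9.09% of all genes, and none was higher, beside 1.83%. In FEZ:FEZ-GFP none was enriched and none was lower, beside 0.22% and 0.02% of all genes, and 8 members were higher at an unadjusted p under 0.05, beside 4.12%, and none was lower, beside 3.15%. None was lower in TMO5:3xGFP, beside 1.05% of all genes, nor at an unadjusted p under 0.05, beside 5.71%. None was enriched in WOX5:GFP, beside 0.351% of all genes, where HTR4 alone was higher at an unadjusted p under 0.05, beside 5.42%.

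The direction of the members was more uniform than the count of calls. In CYCD6:GFP 35 of 36 members had a log2 difference below 0, beside 59.3% of all genes, with a median of -0.95 over the members and -0.10 over all genes. In TMO5:3xGFP 34 of 36 were above 0, beside 59.4% of all genes, with medians of 0.85 and 0.14. In FEZ:FEZ-GFP 30 of 36 were above 0, beside 46.5%, with medians of 0.54 and -0.03, and in WOX5:GFP 28 of 36 were below 0, beside 50.7%, with medians of -0.50 and -0.01. By mean FPKM, 34 of 36 members were highest in FEZ:FEZ-GFP or TMO5:3xGFP, beside 55.4% of all genes. All 24 replication-dependent genes tested were among them, and 6 of the 8 replacement variants. The exceptions were HTR4 and HTA9, which were highest in WOX5:GFP. CYCD6:GFP had the lowest mean for 29 of 36 members, beside 29.2% of all genes.

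The H3.1 genes, which supply the replication-dependent H3, held all 3 members called by the F-test. Their summed level was 81.1 ± 22.9 FPKM in TMO5:3xGFP, 69.0 ± 45.6 in FEZ:FEZ-GFP, 22.9 ± 11.4 in WOX5:GFP and 17.2 ± 7.75 in CYCD6:GFP (SD, n = 3 each). The 6 libraries of TMO5:3xGFP and FEZ:FEZ-GFP ranged from 31.8 to 120 FPKM and did not overlap the 6 of WOX5:GFP and CYCD6:GFP, which ranged from 8.76 to 29.6 FPKM. The ratio of the means was 4.72 for TMO5:3xGFP over CYCD6:GFP and 3.54 for TMO5:3xGFP over WOX5:GFP.

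HTR9 (AT5G10400, chr5:3270172-3270957, minus strand) is an H3.1 gene with a single exon. It had 15.5, 24.8 and 29.2 FPKM in TMO5:3xGFP, against 24.3, 15.2 and 5.10 FPKM in FEZ:FEZ-GFP, 1.83, 3.23 and 1.56 FPKM in CYCD6:GFP and 5.47, 0.484 and 5.45 FPKM in WOX5:GFP. All TMO5:3xGFP libraries were above all CYCD6:GFP and WOX5:GFP libraries, and overlapped those of FEZ:FEZ-GFP. The enrichment in TMO5:3xGFP over the mean of the other 3 populations was 2.09 on the log2 scale (SE 0.49, adjusted p = 0.0144). Its neighbor HTR13 (AT5G10390, chr5:3268847-3269594, minus strand) had 4.38, 12.7 and 8.87 FPKM in TMO5:3xGFP, against 2.71, 1.49 and 0 FPKM in FEZ:FEZ-GFP, 0, 2.46 and 0 FPKM in CYCD6:GFP and 2.85, 1.05 and 0.366 FPKM in WOX5:GFP. Here all 3 TMO5:3xGFP libraries were above the other 9, as for 3.42% of all genes tested. The log2 difference was 2.23 (SE 0.47, adjusted p = 0.00732).

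Both calls needed the TMO5:3xGFP library with the most histone mRNA. Without TMO5:3xGFP replicate 2, HTR9 had a log2 difference of 2.02 (adjusted p = 0.138) and HTR13 of 1.93 (adjusted p = 0.128), and no member was called enriched in TMO5:3xGFP. HTR9 also lost its call without TMO5:3xGFP replicate 3 (adjusted p = 0.0675).

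HTR3 (AT3G27360), the H3.1 gene that overlaps AT3G27380, had under 1e-06 FPKM in WOX5:GFP replicates 1 and 2 and 0.422 FPKM in replicate 3. In the other populations it had 14.4, 6.84 and 2.28 FPKM in FEZ:FEZ-GFP, 3.77, 6.67 and 2.93 FPKM in TMO5:3xGFP, and 2.13, under 1e-06 and 0.702 FPKM in CYCD6:GFP. The WOX5:GFP libraries were below every FEZ:FEZ-GFP and TMO5:3xGFP library and overlapped those of CYCD6:GFP. The log2 difference of WOX5:GFP was -1.85 (SE 0.43, adjusted p = 0.0428), on values that are in part near-0 estimates from a shared locus. The call was lost when any of 9 of the 12 libraries was left out, and held without TMO5:3xGFP replicate 3, FEZ:FEZ-GFP replicate 3 or CYCD6:GFP replicate 2. The log2 difference stayed between -2.05 and -1.68 over the 12 omissions. In FEZ:FEZ-GFP HTR3 had a log2 difference of 1.76 with an adjusted p of 0.0957.

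The 2 most abundant H3.1 genes by mean over the 12 libraries, HTR1 and HTR2, were not called. HTR1 had 20.7, 37.8 and 12.5 FPKM in TMO5:3xGFP, against 44.7, 18.5 and 13.7 FPKM in FEZ:FEZ-GFP, 1.46, 10.7 and 3.99 FPKM in CYCD6:GFP and 10.3, 4.56 and 11.5 FPKM in WOX5:GFP. The 6 libraries of TMO5:3xGFP and FEZ:FEZ-GFP were above the other 6, and the log2 difference of TMO5:3xGFP was 1.11 (adjusted p = 0.214). The share of all genes tested that separate 6 against 6 in this way was not counted. HTR2 averaged 21.2 ± 4.14 FPKM in TMO5:3xGFP, 19.3 ± 12.7 in FEZ:FEZ-GFP, 7.84 ± 4.64 in CYCD6:GFP and 8.78 ± 4.44 in WOX5:GFP (SD, n = 3 each), and its log2 difference in TMO5:3xGFP was 1.01 (adjusted p = 0.218).

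The H3.3 genes, which supply the replacement H3, were much more even. Their sum was 23.3 ± 10.2 FPKM in TMO5:3xGFP, 24.2 ± 7.62 in FEZ:FEZ-GFP, 22.9 ± 6.18 in WOX5:GFP and 16.2 ± 3.26 in CYCD6:GFP (SD, n = 3 each), and every pair of populations overlapped. HTR5 (AT4G40040) was the most abundant H3.3 gene by mean over the 12 libraries, although HTR8 was higher in FEZ:FEZ-GFP. It had 8.98, 13.7 and 7.79 FPKM in TMO5:3xGFP, 8.58, 13.0 and 5.98 FPKM in FEZ:FEZ-GFP, 8.83, 4.92 and 11.3 FPKM in WOX5:GFP and 7.41, 9.92 and 7.05 FPKM in CYCD6:GFP. All populations overlapped, and the highest population mean was 1.25 times the lowest. HTR4 (AT4G40030), its neighbor, was the least abundant H3.3 gene by the same mean, although not in WOX5:GFP, with 11.9, 4.0 and 5.91 FPKM in WOX5:GFP, against 1.41, 7.13 and 2.69 FPKM in TMO5:3xGFP, 6.87, 3.98 and 1.28 FPKM in FEZ:FEZ-GFP and 1.81, 0 and 3.43 FPKM in CYCD6:GFP. Its log2 difference in WOX5:GFP was 1.12 (adjusted p = 0.38), and the libraries overlapped. HTR8 had between 2.72 and 15.3 FPKM over the 12 libraries, and its highest population mean was 1.74 times the lowest.

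Within H3 the share of H3.1 separated the populations. It made up 78.0% ± 4.10 of H3 mRNA in TMO5:3xGFP, 71.4% ± 7.12 in FEZ:FEZ-GFP, 49.8% ± 12 in CYCD6:GFP and 47.9% ± 9.52 in WOX5:GFP (SD, n = 3 each). The 6 libraries of TMO5:3xGFP and FEZ:FEZ-GFP had shares from 66.7% to 82.7%, and the 6 of CYCD6:GFP and WOX5:GFP from 37.3% to 62.2%, with no overlap. The share is taken within a library, so that it does not depend on how much ribosomal RNA the library holds. Without HTR3 the means were 77.0%, 69.2%, 47.3% and 47.8% in the same order.

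**Figure D2:**
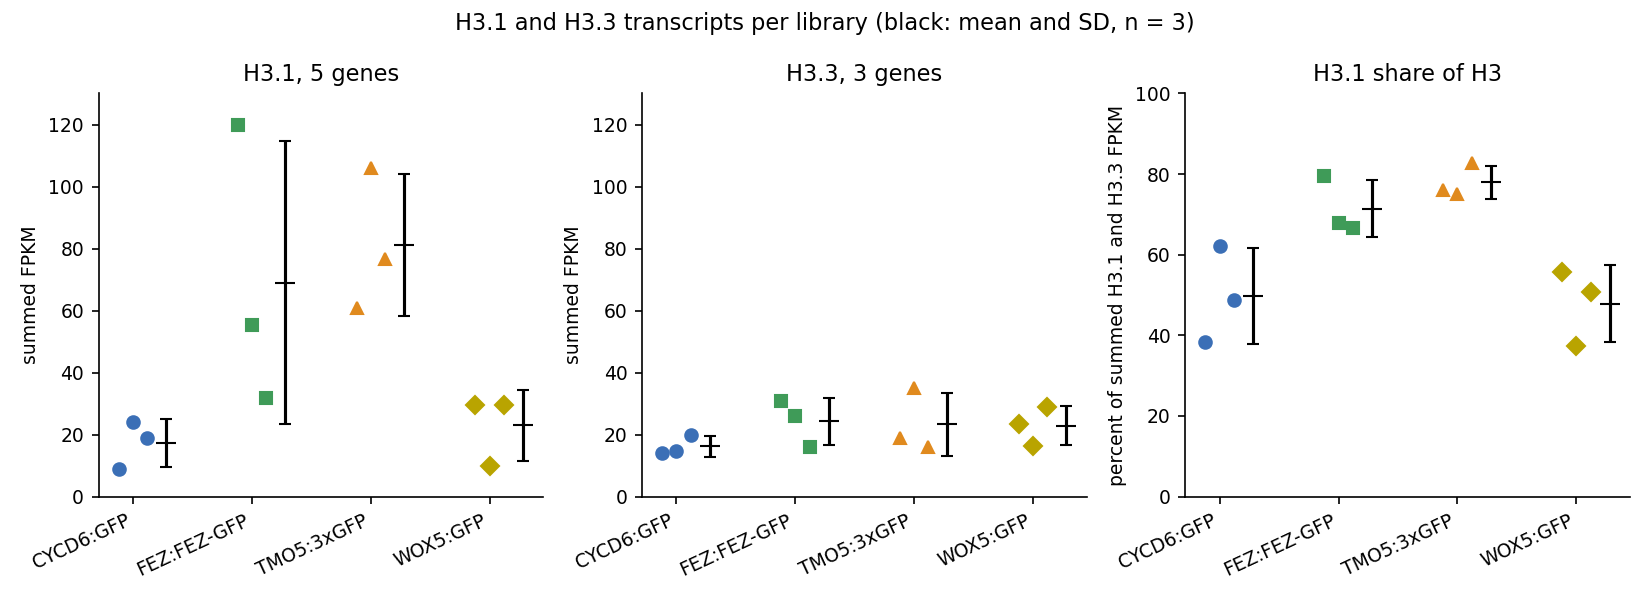
Summed FPKM of the 5 H3.1 genes, summed FPKM of the 3 H3.3 genes and the H3.1 percent of all H3 mRNA in the 4 sorted tcx2 populations, with 1 point per library and the mean ± SD of n = 3. The H3.1 sum and share are higher in all FEZ:FEZ-GFP and TMO5:3xGFP libraries (shares from 66.7%) than in all CYCD6:GFP and WOX5:GFP libraries (shares up to 62.2%), and the H3.3 sums of all populations overlap.

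The H4 genes resembled H3.1 in their order of populations. The 8 H4 genes summed to 61.3 ± 28.9 FPKM in TMO5:3xGFP, 48.0 ± 21.4 in FEZ:FEZ-GFP, 23.4 ± 5.36 in WOX5:GFP and 15.5 ± 1.62 in CYCD6:GFP (SD, n = 3 each). The sums did not overlap between any populations except TMO5:3xGFP and FEZ:FEZ-GFP. None of the 8 was called, and all 8 had a log2 difference below 0 in CYCD6:GFP and above 0 in TMO5:3xGFP. The most abundant by mean over the 12 libraries, AT5G59690, which was second to AT3G53730 in WOX5:GFP, had 8.28, 27.4 and 6.81 FPKM in TMO5:3xGFP, 12.2, 9.74 and 11.5 FPKM in FEZ:FEZ-GFP, 4.09, 0.989 and 6.30 FPKM in WOX5:GFP and 4.32, 4.27 and 2.49 FPKM in CYCD6:GFP. All TMO5:3xGFP and FEZ:FEZ-GFP libraries were above the other 6, a separation not counted over all genes. The least abundant by that mean, AT3G46320, had 1.76, 1.89 and 4.55 FPKM in TMO5:3xGFP, 6.53, 1.12 and 0.763 FPKM in FEZ:FEZ-GFP, 0, 0 and 1.13 FPKM in WOX5:GFP and 0, 0 and 0.696 FPKM in CYCD6:GFP. It shares windows with AT3G45930, so that its level is less certain. Over the 8 genes the ratio of the highest to the lowest population mean ran from 2.41 to 12.1, with a median of 4.45.

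The 4 replication-dependent H2A genes gave the smallest difference between FEZ:FEZ-GFP and CYCD6:GFP among the replication-dependent classes. They summed to 16.8 ± 3.34 FPKM in TMO5:3xGFP, 9.72 ± 2.95 in FEZ:FEZ-GFP, 7.40 ± 3.08 in WOX5:GFP and 7.90 ± 3.31 in CYCD6:GFP (SD, n = 3 each). The 3 TMO5:3xGFP sums, from 13.8 FPKM up, were above the other 9. The most abundant by mean over the 12 libraries, HTA10, had 6.57, 8.60 and 4.83 FPKM in TMO5:3xGFP, 4.96, 7.07 and 1.93 FPKM in FEZ:FEZ-GFP, 5.05, 2.28 and 3.36 FPKM in WOX5:GFP and 2.76, 3.23 and 9.18 FPKM in CYCD6:GFP, and all populations overlapped. HTA1, the least abundant by that mean, did not pass the filter and lay between 0 and 1.23 FPKM. None of the 3 H2A genes tested was called.

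The H2A variants differed among themselves. H2A.X, phosphorylated at DNA breaks, summed to 15 ± 6.54 FPKM in TMO5:3xGFP, 11.6 ± 6.39 in FEZ:FEZ-GFP, 7.2 ± 2.57 in WOX5:GFP and 3.20 ± 2.95 in CYCD6:GFP (SD, n = 3 each). The class median of the log2 difference of H2A.X was 1.04 in TMO5:3xGFP, 0.51 in FEZ:FEZ-GFP, -0.21 in WOX5:GFP and -1.34 in CYCD6:GFP, and that of H3.1 was 1.11, 1.04, -0.71 and -1.20 in the same order. HTA5 had 0.517, 2.68 and 0.499 FPKM in CYCD6:GFP, against 6.90, 11.4 and 4.19 FPKM in TMO5:3xGFP, 11.4, 6.69 and 3.76 FPKM in FEZ:FEZ-GFP and 5.69, 2.64 and 6.65 FPKM in WOX5:GFP. The log2 difference of CYCD6:GFP was -1.80 with an adjusted p of 0.082, and one WOX5:GFP library lay just below the highest CYCD6:GFP library. HTA3 had 5.88, 11 and 5.6 FPKM in TMO5:3xGFP, against 6.90, 4.24 and 1.83 FPKM in FEZ:FEZ-GFP, 0.974, 3.93 and 1.01 FPKM in CYCD6:GFP and 1.42, 2.03 and 3.17 FPKM in WOX5:GFP, with a log2 difference of 1.24 in TMO5:3xGFP (adjusted p = 0.0777).

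H2A.Z had its lowest level in CYCD6:GFP. Its 3 genes summed to 2.51 ± 0.45 FPKM in CYCD6:GFP, against 8.97 ± 2.02 in TMO5:3xGFP, 6.37 ± 0.803 in FEZ:FEZ-GFP and 6.10 ± 0.368 in WOX5:GFP (SD, n = 3 each). The 3 CYCD6:GFP sums, from 2.03 to 2.93 FPKM, were below the other 9, from 5.70 to 11 FPKM. HTA9, the most abundant H2A.Z gene by mean over the 12 libraries, had 1.25, 1.04 and 2.57 FPKM in CYCD6:GFP, against 2.72, 4.85 and 4.39 FPKM in TMO5:3xGFP, 3.00, 3.33 and 4.25 FPKM in FEZ:FEZ-GFP and 4.19, 2.96 and 5.09 FPKM in WOX5:GFP. HTA9 and the H2B gene HTB9 were the 2 members with all 3 CYCD6:GFP libraries below the other 9, as for 1.3% of all genes tested, and the log2 difference of HTA9 was -0.92 (adjusted p = 0.306).

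HTA8 (AT2G38810, chr2:16219220-16220928, minus strand) was the one replacement variant called. It had 2.75, 4.51 and 1.94 FPKM in TMO5:3xGFP, against 0.729, 2.10 and 0.392 FPKM in FEZ:FEZ-GFP, 0.298, 0 and 0 FPKM in CYCD6:GFP and 1.83, 0.990 and 0 FPKM in WOX5:GFP. The lowest TMO5:3xGFP library lay just below the highest FEZ:FEZ-GFP library and above all CYCD6:GFP and WOX5:GFP libraries. The log2 difference was 1.33 (SE 0.36, adjusted p = 0.0312), and the call was lost without any of 4 libraries, CYCD6:GFP replicate 2, TMO5:3xGFP replicate 1 or 2 and WOX5:GFP replicate 3. Without TMO5:3xGFP replicate 2 the log2 difference was 1.09 (adjusted p = 0.302). The call was also lost with median centring of the libraries (log2 difference 1.16, adjusted p = 0.0691) and with a pseudocount of 5, where the log2 difference was 0.50 and thus under the fold required. HTA8 was the least abundant H2A.Z gene by mean over the 12 libraries, although above HTA11 in TMO5:3xGFP, and its F-test was not called (adjusted p = 0.073).

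H2A.W, the heterochromatin variant, had sums that averaged 10.9 FPKM in TMO5:3xGFP, 11.2 in FEZ:FEZ-GFP, 4.49 in WOX5:GFP and 4.11 in CYCD6:GFP. Its most abundant gene by mean over the 12 libraries, HTA6, had 6.95, 10.08 and 3.77 FPKM in TMO5:3xGFP, 9.14, 5.09 and 4.22 FPKM in FEZ:FEZ-GFP, 3.98, 0.538 and 2.78 FPKM in WOX5:GFP and 1.43, 2.67 and 4.17 FPKM in CYCD6:GFP. The libraries overlapped and no H2A.W gene was called. HTA12 did not pass the filter, with at most 1.08 FPKM.

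The H2B genes, partners of H2A in the core, summed to 57.3 ± 25.5 FPKM in TMO5:3xGFP, 53.9 ± 27.7 in FEZ:FEZ-GFP, 30.8 ± 10.5 in WOX5:GFP and 20.1 ± 6.24 in CYCD6:GFP (SD, n = 3 each). The most abundant by mean over the 12 libraries, HTB4, which was below HTB11 in CYCD6:GFP, had 13.6, 23.4 and 11.1 FPKM in TMO5:3xGFP, 18.7, 12.9 and 2.25 FPKM in FEZ:FEZ-GFP, 7.73, 2.61 and 17.9 FPKM in WOX5:GFP and 4.52, 5.61 and 2.29 FPKM in CYCD6:GFP. TMO5:3xGFP libraries were above all CYCD6:GFP libraries, and the spread within FEZ:FEZ-GFP and WOX5:GFP was wide. HTB9 had 1.40, 1.57 and 4.20 FPKM in CYCD6:GFP, against 7.17, 15 and 4.74 FPKM in TMO5:3xGFP, 14.4, 12.8 and 4.87 FPKM in FEZ:FEZ-GFP and 7.57, 6.18 and 7.51 FPKM in WOX5:GFP. Its log2 difference in CYCD6:GFP was -1.54 (adjusted p = 0.143). The 8 H2B genes tested were all below 0 in CYCD6:GFP and none was called. HTB6 was the one H2B gene below 0 in TMO5:3xGFP: it averaged 3.52 ± 0.944 FPKM in FEZ:FEZ-GFP, against 1.22 ± 1.29 in TMO5:3xGFP, 0.892 ± 0.62 in CYCD6:GFP and 0.736 ± 0.236 in WOX5:GFP (SD, n = 3 each), with a log2 difference of 1.28 in FEZ:FEZ-GFP (adjusted p = 0.198). HTB10 was at 0 in all 12 libraries.

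The linker histone genes tested, H1.1 and H1.2, were not called and had different patterns. H1.1 had 10.3, 24.0 and 8.71 FPKM in TMO5:3xGFP and 26.5, 12.9 and 6.75 FPKM in FEZ:FEZ-GFP, against 4.31, 6.31 and 3.20 FPKM in CYCD6:GFP and 5.04, 5.42 and 4.11 FPKM in WOX5:GFP. All 6 libraries of TMO5:3xGFP and FEZ:FEZ-GFP were above the other 6, which was not counted over all genes. H1.2, the most abundant H1 gene by mean over the 12 libraries although below H1.1 in TMO5:3xGFP and FEZ:FEZ-GFP, had 8.77, 10.4 and 11.9 FPKM in TMO5:3xGFP, 15.9, 13.2 and 8.69 FPKM in FEZ:FEZ-GFP, 7.42, 8.55 and 19.4 FPKM in CYCD6:GFP and 7.70, 7.48 and 6.76 FPKM in WOX5:GFP, and was the one member with a log2 difference above 0 in CYCD6:GFP (0.13, adjusted p = 0.954). H1.1 averaged 55.4% of the H1.1 and H1.2 mRNA in TMO5:3xGFP, 51.8% in FEZ:FEZ-GFP, 39.8% in WOX5:GFP and 31.1% in CYCD6:GFP. H1.3, known as a stress-induced H1, was above 0 in 2 libraries, at 1.07 FPKM in CYCD6:GFP replicate 2 and 0.413 FPKM in WOX5:GFP replicate 1.

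**Figure D3:**
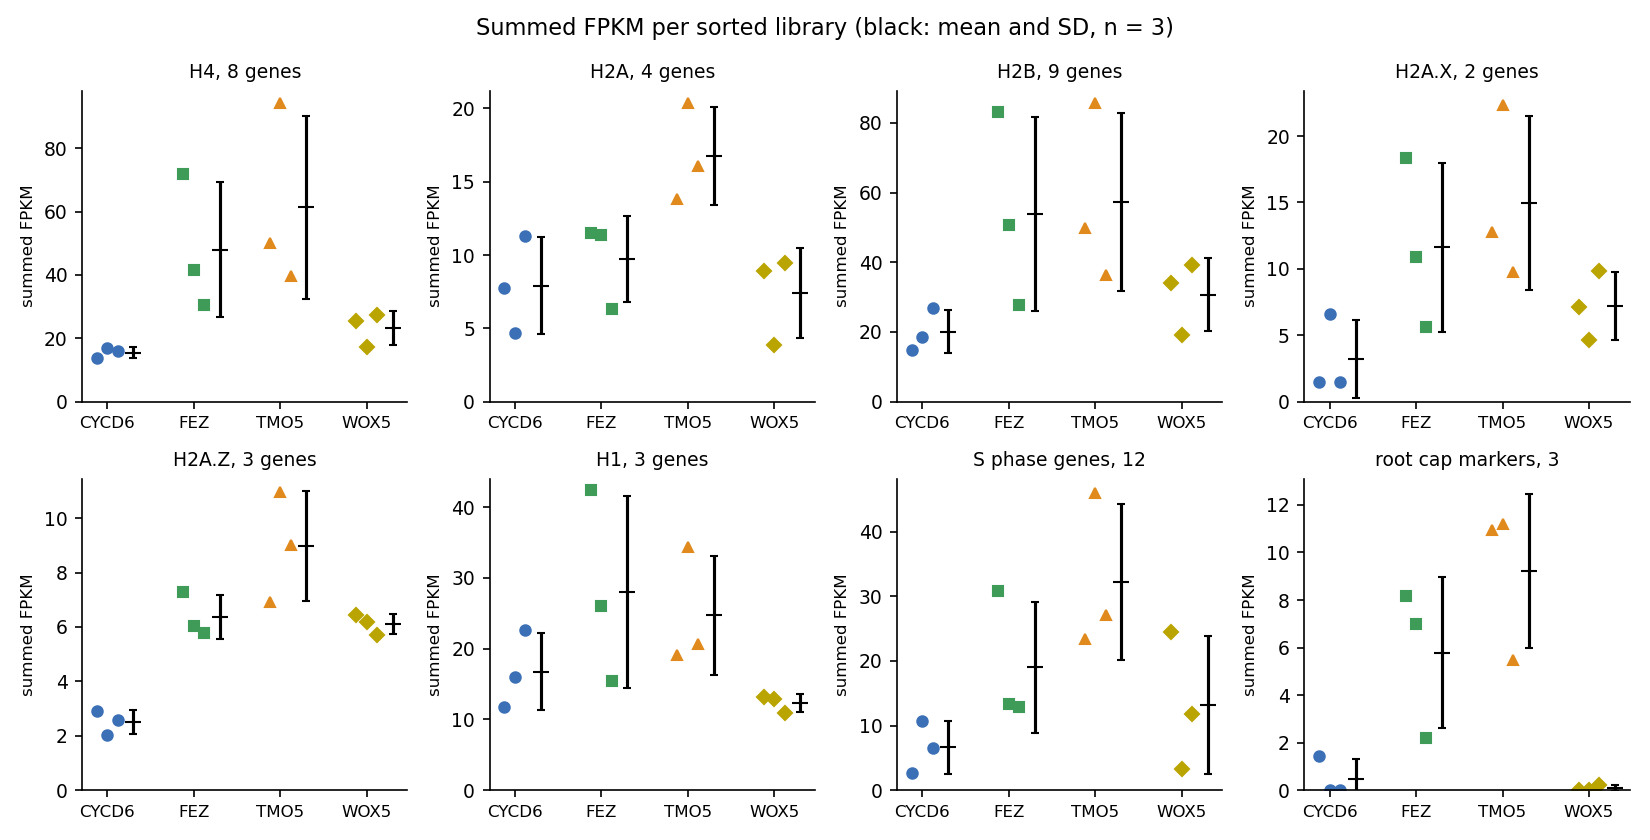
Summed FPKM per library of the H4, H2A, H2B, H2A.X, H2A.Z and H1 genes, and of the S phase genes and root cap markers, in the 4 sorted tcx2 populations, with 1 point per library and the mean ± SD of n = 3. The 3 TMO5:3xGFP sums of H2A lie above the other 9 libraries, and the 3 CYCD6:GFP sums of H2A.Z (2.03 to 2.93 FPKM) lie below the other 9.

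Set side by side as sums, the replication-dependent genes spread further than the replacement variants, although not class by class. The 26 replication-dependent genes summed to 217 ± 77.7 FPKM in TMO5:3xGFP, 181 ± 96.8 in FEZ:FEZ-GFP, 84.5 ± 30.2 in WOX5:GFP and 60.7 ± 14.4 in CYCD6:GFP (SD, n = 3 each). The 8 variants summed to 47.3 ± 18.3, 42.2 ± 14.6, 36.2 ± 8.53 and 21.9 ± 2.99 FPKM in the same order. TMO5:3xGFP over WOX5:GFP was 2.56-fold for the replication-dependent genes and 1.31-fold for the variants, and TMO5:3xGFP over CYCD6:GFP was 3.57-fold and 2.16-fold. By class, TMO5:3xGFP over CYCD6:GFP was 4.72-fold for H3.1, 3.96-fold for H4, 2.85-fold for H2B and 2.12-fold for H2A. The same ratio was 4.68-fold for H2A.X, 3.57-fold for H2A.Z and 1.44-fold for H3.3. H2A.X and H2A.Z thus spread further by this ratio than H2A and H2B. Of all member FPKM, the replication-dependent genes took 72.5% ± 0.88 in TMO5:3xGFP, 68.0% ± 2.81 in FEZ:FEZ-GFP, 60.4% ± 5.37 in WOX5:GFP and 58.6% ± 1.38 in CYCD6:GFP. All TMO5:3xGFP and FEZ:FEZ-GFP libraries, from 65.7%, were above all WOX5:GFP and CYCD6:GFP libraries, up to 63.6%.

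By single genes the same contrast was clearest in TMO5:3xGFP, where the median log2 difference was 1.03 over the 24 replication-dependent genes tested and 0.43 over the 8 variants. At an unadjusted p under 0.05, 15 of the 24 and 2 of the 8 were higher there, beside 14.8% of all genes. In CYCD6:GFP the groups were close, with medians of -1.0 and -0.90. At an unadjusted limma p under 0.05, 14 of 24 and 5 of 8 were lower in CYCD6:GFP, beside 9.09% of all genes. In WOX5:GFP the medians were -0.62 and -0.17, and in FEZ:FEZ-GFP 0.58 and 0.22. No test of the difference between the gene groups was made, since the members were chosen with results known. Values of log2(FPKM + 1) understate the fold changes of low genes. HTA8, with population means from 0.0993 to 3.07 FPKM, had a log2 difference of 1.33 in TMO5:3xGFP. The part of this scale in the gap between the groups was not tested. Among the variants the class medians over the 4 populations ran from -1.34 to 1.04 for H2A.X, from -0.92 to 0.51 for H2A.Z and from -0.43 to 0.23 for H3.3.

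**Figure D4:**
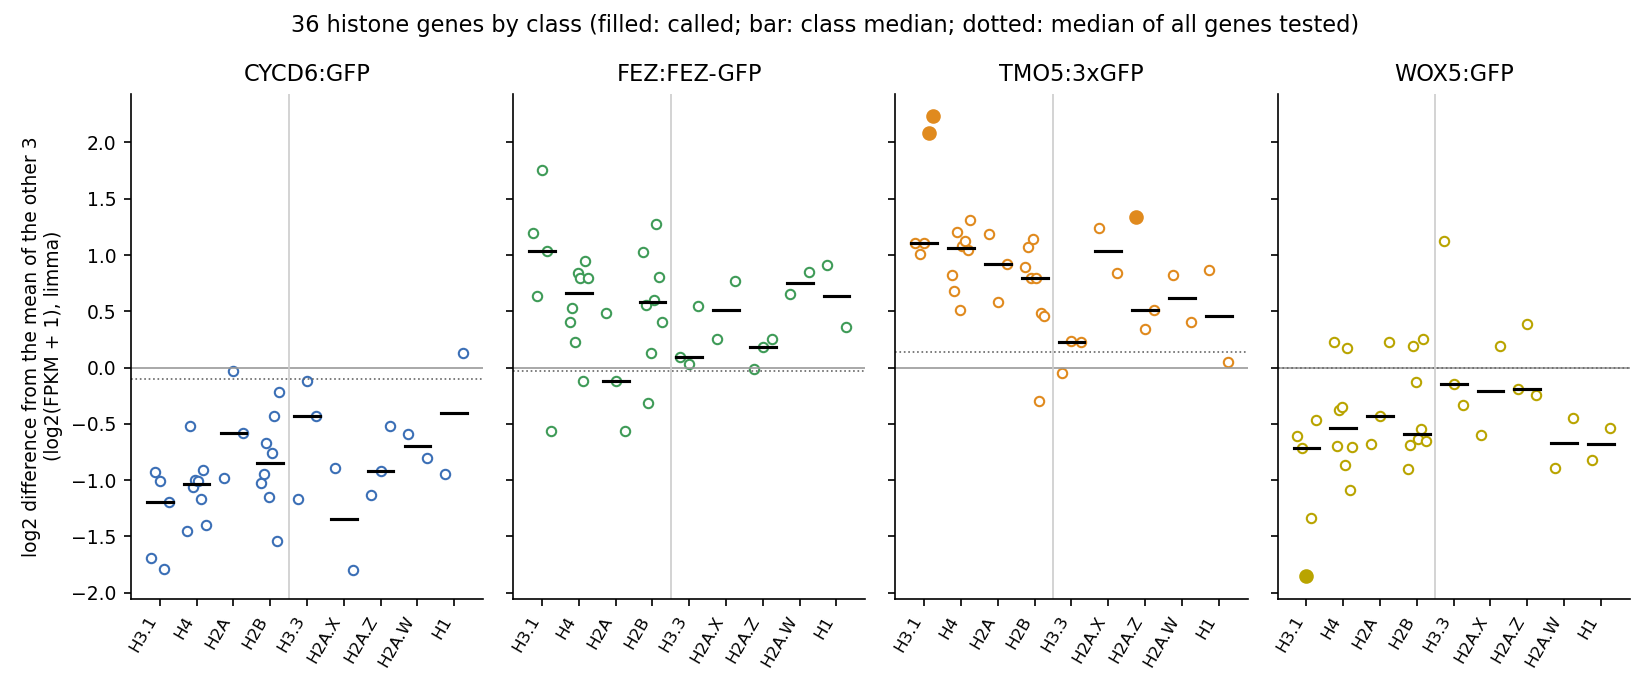
Log2 difference, on log2(FPKM + 1), of each of the 36 tested members between a population and the mean of the other 3, by class, with 1 panel per population. Filled points passed the test (HTR9, HTR13 and HTA8 in TMO5:3xGFP, HTR3 in WOX5:GFP), bars are class medians and the dotted line is the median of all 9979 genes; in CYCD6:GFP 35 of 36 points lie below 0.

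Other genes of DNA replication, from a list drawn up with earlier results of these data known, also had their highest sum in TMO5:3xGFP and their lowest in CYCD6:GFP. The 12 S phase genes, which include the replicative helicase subunits MCM2 to MCM7, the sliding clamp PCNA and ribonucleotide reductase, summed to 32.2 ± 12.1 FPKM in TMO5:3xGFP, 19.0 ± 10.2 in FEZ:FEZ-GFP, 13.2 ± 10.7 in WOX5:GFP and 6.63 ± 4.08 in CYCD6:GFP (SD, n = 3 each). Of the 10 tested, RNR1 (adjusted p = 0.031) and TSO2 (adjusted p = 0.0466) were enriched in TMO5:3xGFP, beside 4.47% of all genes. They encode the large and small subunit of ribonucleotide reductase. Histone chaperones and loaders, which carry histones to DNA, were flatter as a sum. The 19 genes summed to 68.9 FPKM in TMO5:3xGFP, 54.3 in FEZ:FEZ-GFP, 66.3 in WOX5:GFP and 59.4 in CYCD6:GFP. NAP1;1, NAP1;2 and NAP1;3 carried much of it, with means of 10.1, 10.3 and 29.0 FPKM in CYCD6:GFP. By single genes, 10 of the 11 tested were above 0 in TMO5:3xGFP (median 0.43), beside 59.4% of all genes. In CYCD6:GFP 10 were below 0 (median -0.24), beside 59.3%. In FEZ:FEZ-GFP 4 were above 0, beside 46.5%, and in WOX5:GFP 6 were below 0, beside 50.7%. None of the 11 tested was called by limma, and 4 were higher in TMO5:3xGFP at an unadjusted p under 0.05, beside 14.8% of all genes. Of 9 further histone-related genes none passed the filter.

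Markers of the root cap moved with the same populations. SMB, BRN1 and BRN2, transcription factors of root cap maturation, summed to 5.48 to 11.2 FPKM in TMO5:3xGFP and 2.18 to 8.17 FPKM in FEZ:FEZ-GFP, against 0 to 1.42 FPKM in CYCD6:GFP and 0 to 0.216 FPKM in WOX5:GFP, and SMB was at 0 in all CYCD6:GFP libraries. SMB and BRN1 were enriched in TMO5:3xGFP (adjusted p = 0.013 and 0.0073), beside 4.47% of all genes. SMB was lower in WOX5:GFP (adjusted p = 0.043), beside 0.451% of all genes. The part of these cells in the histone differences was not tested. The 4 root hair markers overlapped in all populations, with sums of 8.39 to 21.6 FPKM in TMO5:3xGFP, 12.7 to 27.0 in FEZ:FEZ-GFP, 7.22 to 21.4 in WOX5:GFP and 5.64 to 18.1 in CYCD6:GFP. The 4 xylem differentiation markers summed to 2.05 to 13.9 FPKM in WOX5:GFP and to at most 1.81 FPKM elsewhere. XCP1, the only one to pass the filter, was enriched in WOX5:GFP (log2 difference 1.80), beside 0.351% of all genes. It had 0.755, 3.00 and 8.42 FPKM there and was at 0 in all TMO5:3xGFP libraries. TMO5 and WOX5 mRNA, given above, also ran against the names of these populations. Whether WOX5:GFP and TMO5:3xGFP hold the cells their reporters name was not tested.

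In root tips the question was whether loss of TCX2 changes histone mRNA as a whole, and no difference was detectable in the deposited values. Of the 40 members 39 had at least 1 FPKM in a genotype, and H1.3 did not (0.094 FPKM in tcx2 and 0.062 FPKM in WT). For none of the 39 did the deposited intervals of tcx2 and WT separate, beside 0.361% of all genes, and none passed 1.5-fold on log2(FPKM + 1), beside 2.62% of all genes. With 1 value per genotype there is no replicate error and no test. The deposited intervals are wide. They allow a ratio of tcx2 over WT from 0.56 to 1.94 for HTR1 and from 0.49 to 1.76 for HTB1. The members summed to 4988 FPKM in tcx2 and 4929 FPKM in WT, 19 were higher and 20 lower in tcx2, beside 49.6% of all genes lower, and the median log2 ratio was -0.01, beside 0.00 over all genes. TCX2 itself was among the genes with separate intervals. Of 39 members, 38 lay within the central 95% of all log2 ratios, from -0.50 to 0.38.

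The classes were also close in root tips. The replication-dependent genes summed to 2872 FPKM in tcx2 and 2908 FPKM in WT, with a median log2 ratio of -0.01, and the replacement variants to 1376 FPKM in tcx2 and 1337 FPKM in WT, with a median of 0.01. H3.1, counted with the merged HTR3 entry, made up 37.8% of H3 mRNA in tcx2 and 38.5% in WT, and without that entry 31% in tcx2 and 31.4% in WT. With the entry H3.1 summed to 628 FPKM in tcx2 and 614 FPKM in WT, and H3.3 to 1033 and 981 FPKM. H4 had 855 FPKM in tcx2 and 851 FPKM in WT, and H2A had 404 and 405 FPKM. H2B had 985 FPKM in tcx2 and 1038 FPKM in WT. The log2 ratio was below 0 for 8 of 9 H2B genes, beside 49.6% of all genes, with a median of -0.09. The H1 genes summed to 463 FPKM in tcx2 and 422 FPKM in WT.

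The members called between sorted populations had overlapping intervals in tcx2 and WT. HTR9 had 70.2 FPKM in tcx2 and 71.7 FPKM in WT, HTR13 had 23.9 and 26.1 FPKM, and the merged HTR3 entry had 163 and 165 FPKM. HTA8 had 18.2 FPKM (12.4 to 24.0) in tcx2 and 21.6 FPKM (14.6 to 28.6) in WT, a log2 ratio of -0.24. The most abundant member, HTR5, had 428 FPKM (329 to 527) in tcx2 and 402 FPKM (309 to 496) in WT. H1.1 had 326 FPKM (241 to 411) in tcx2 and 290 FPKM (208 to 373) in WT, a log2 ratio of 0.17.

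The extremes were HTB10 and HTA12, which overlap each other in the genome. HTB10 had 1.49 FPKM (0 to 2.70) in tcx2 and 2.70 FPKM (0.6 to 4.5) in WT, the lowest log2 ratio at -0.57. HTA12 had 22.1 FPKM (15.2 to 29.2) in tcx2 and 18.6 FPKM (12 to 25.3) in WT, the highest at 0.24. For HTR2, HTR8, the H4 gene AT5G59970 and HTB6 the deposited value lay outside its own interval in both genotypes, as for 2.5% of all genes in at least 1 genotype, so their intervals cannot be read as error bars. Of the 12 S phase genes 10 were lower in tcx2, beside 49.6% of all genes, with a median log2 ratio of -0.08. None of the 12 had separate intervals, beside 0.361% of all genes, and none passed 1.5-fold, beside 2.62%. Levels in root tips and in sorted cells come from separately made tables and are not compared.

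**Figure D5:**
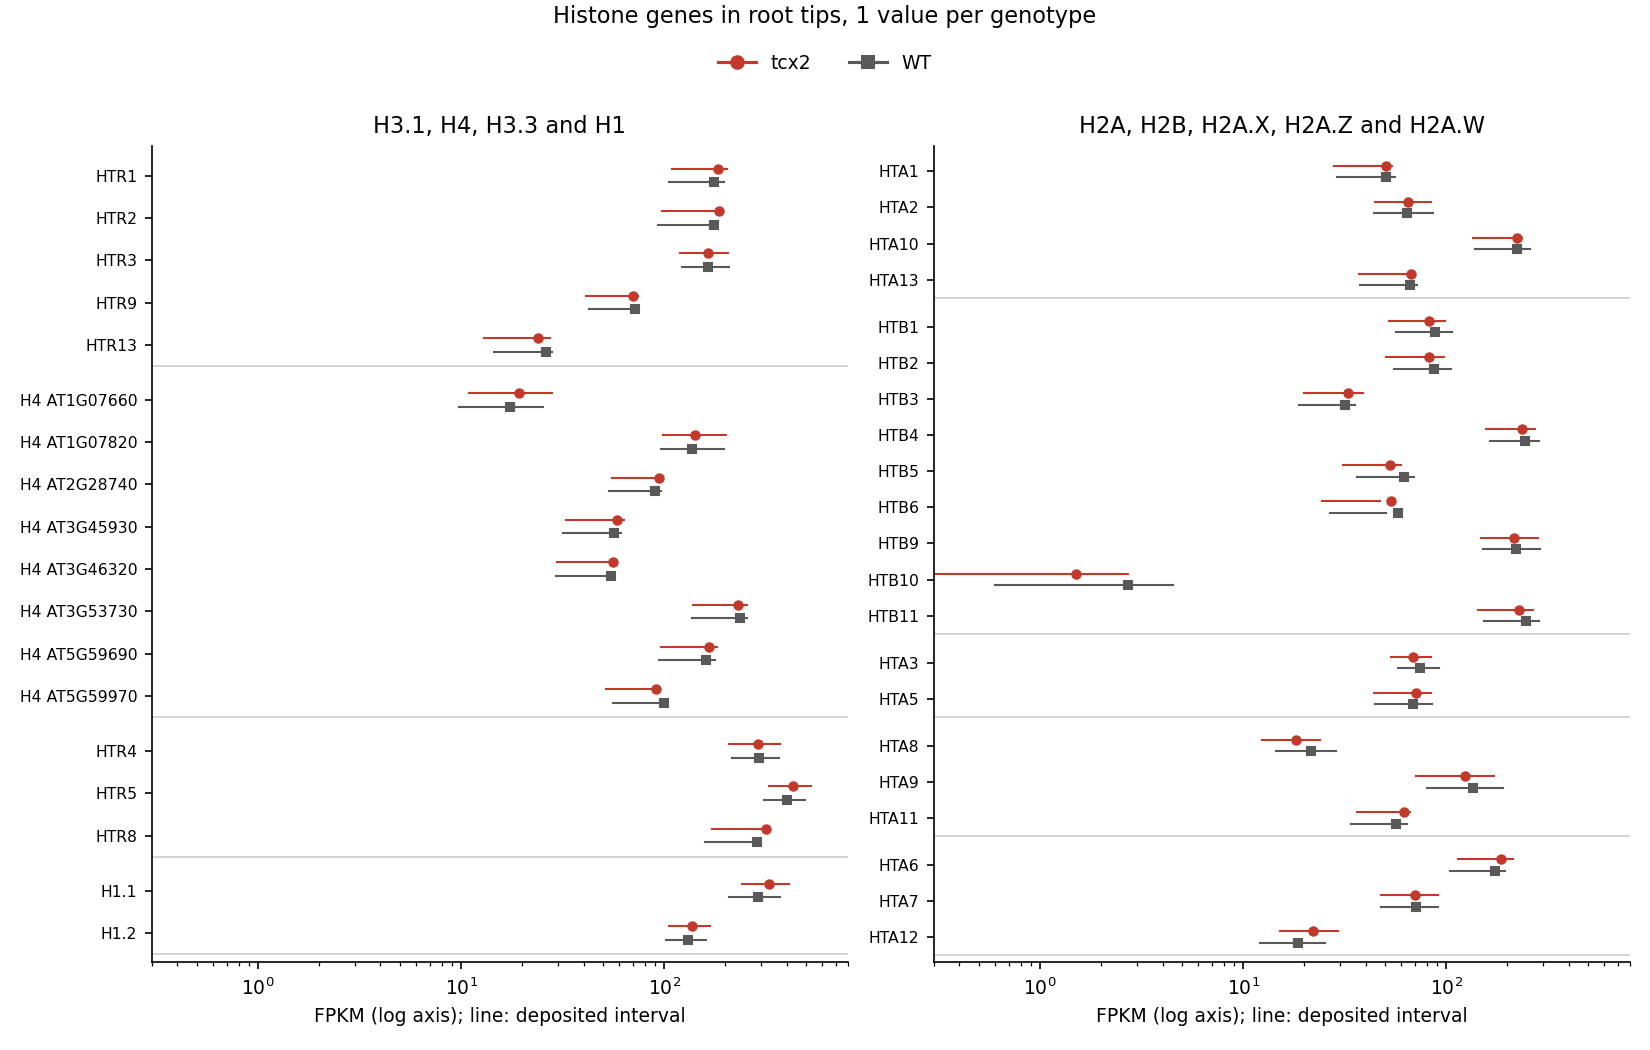
Deposited FPKM (log axis) of the 39 members with at least 1 FPKM in root tips, with tcx2 drawn above WT for each gene and horizontal lines for the deposited intervals, whose level is not stated. The intervals of tcx2 and WT overlap for all 39 genes, and the lower bound of HTB10 in tcx2 is 0 and is cut at the edge of the axis.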

How the data were processed

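RNA was sequenced from root tips (tcx2-3 and WT, NEBNext Ultra II kit) and from sorted protoplasts of tcx2 crossed with 4 reporters (SMARTer Stranded kit), as single-end reads of 100 bases. The authors deposited FPKM, mapped to TAIR10. The submitters' processing notes name Bowtie, Bowtie2, Cufflinks and edgeR, without versions, and the study's methods name Bowtie, Tuxedo and Rsubread. The sorted table gives 1 FPKM column per library. The root tip table gives 1 deposited FPKM per genotype with an interval of unstated level, and its columns of the authors' own comparison were not used. Reads per library are unknown, so no counting interval is given. All columns used were mapped to samples or groups (0 unmapped).

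The members and gene lists were chosen with earlier results of these data known. Sorted libraries were fitted in R 4.3.3 with limma 3.58.1 (group means, intensity trend) on log2(FPKM + 1), over genes that reached 1 FPKM in 3 or more libraries. Fold changes on this scale understate those of low genes. P-values were adjusted over all genes by Benjamini-Hochberg. Calls needed an adjusted p under 0.05 and, in contrasts, a fold over 2. Members below the filter were tested by exact two-sided permutation (220 choices, 12 tests; all adjusted p = 1, smallest possible p 0.00455, too large for a single one of the 12 to pass after adjustment, so that this says nothing about these members). Root tip members were called where intervals did not overlap, with FPKM of at least 1 in a genotype, and counted past 1.5-fold. Tables, sequence searches and figures used Python 3.11.15, pandas 2.3.3, numpy 2.4.6 and matplotlib 3.10.9, with sequences and gene models from RefSeq TAIR10.1. The fit was run on simulated data with normal errors, in which only genes above a set mean level were changed. The outcome is not given here, and recovery of changes in lower genes was not tested.

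Given in every library were called members and the highest and lowest member of each class by mean FPKM. HTR2, HTR8, HTB6, HTB9 and H1.1 were described beyond this rule after their values were seen. Alternatives were a pseudocount of 0.1 or 5, no filter, median centring, rescaling without ribosomal RNA and organelle genes, array weights, a replicate block, leaving out each library, class medians for the H3.1 share and, in root tips, pseudocounts, rescaling, quantile normalization and leaving out merged entries. Leaving out HTR3 was added after seeing the data.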

Additional observations from a re-analysis of the deposited data

How the results depend on the processing

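The direction of the members was kept under each alternative scaling of the sorted libraries: with median centring 33 of 36 members stayed below 0 in CYCD6:GFP and 33 above 0 in TMO5:3xGFP. The calls were less stable. Members called by the F-test numbered 3, with 25 under array weights (where 3985 of all 9979 genes were called), 0 without a filter and 1 to 5 when single libraries were left out, with 1 (HTR3) without TMO5:3xGFP replicate 2 and 5 without CYCD6:GFP replicate 2. Those enriched in TMO5:3xGFP numbered 3, with 7 under array weights (940 of all genes), 0 with a pseudocount of 0.1, 0 without a filter and 0 to 5 when single libraries were left out, with 0 without TMO5:3xGFP replicate 2 and 5 without FEZ:FEZ-GFP replicate 1. Median centring and a pseudocount of 5 each left 2, HTR9 and HTR13, without HTA8. The 1 member lower in WOX5:GFP became 0 with a pseudocount of 0.1 or 5, without a filter, with the replicate block and with HTR3 left out, and 0 to 1 when single libraries were left out. Array weights called 14 members lower in CYCD6:GFP (717 of all genes) and 3 enriched in FEZ:FEZ-GFP (181 of all genes), a pseudocount of 0.1 called 1 lower in CYCD6:GFP (HTA5), and leaving out single libraries gave 0 to 1 enriched in FEZ:FEZ-GFP. From class medians instead of sums, H3.1 made up 65.7% of H3 in TMO5:3xGFP, 59.8% in FEZ:FEZ-GFP, 28.9% in CYCD6:GFP and 29.5% in WOX5:GFP. In root tips, a pseudocount of 0.1 put 1 member, HTB10, past 1.5-fold, and quantile normalization gave 13 members higher and 26 lower in tcx2. The cause of these changes was not tested.

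The populations share replicate numbers, but these did not pair the libraries: over 18 same-numbered pairs the correlation of deviations ran from -0.187 to 0.174, and 2 were over 0.1. With the replicate block 3 members were called by the F-test and 3 enriched in TMO5:3xGFP, and HTR3 in WOX5:GFP had an adjusted p of 0.0514. Over all alternatives the adjusted p ran from 0.00207 to 0.138 for HTR9, 0.00294 to 0.128 for HTR13, 0.00133 to 0.302 for HTA8 and 0.0131 to 0.253 for HTR3. With unknown depth, a value of 0 in a sorted library sets no limit on the level. With 1 value per genotype in root tips, a change of the histone genes within the wide deposited intervals was not detectable.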
